A study of Mus musculus with 2 samples.

Results

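Among CD4 T cells sorted from mouse visceral adipose tissue (VAT, the fat around the abdominal organs) and spleen, 205 cells carried regulatory T cell transcripts together with at least 2 of the transcripts Il10, Gzmb, Cyp11a1 and Cxcr3, while lacking the transcript of the IL-33 receptor ST2 (gene Il1rl1). They are called members below. They were 205 of the 14382 cells that passed the filters in the whole data set and of the 6845 T cells carrying hashtags 1 to 4. A member had at least 500 genes and under 10% mitochondrial counts, and at least 80% of its hashtag counts, and at least 10 counts, came from 1 of hashtags 1 to 4. It also had at least 2 unique molecules (UMIs) summed over Cd3e, Cd3d, Cd3g and Trac, no Il1rl1 UMI, at most 1 Areg UMI, at least 2 of the 4 signature genes (Il10, Gzmb, Cyp11a1, Cxcr3) and at least 1 of the 4 Treg genes Foxp3, Ikzf2, Il2ra and Ctla4. Members were thus chosen by the measured counts of these same cells, and the 14 genes it names are described without a test and left out of every count of genes.

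The study profiled single CD4 T cells from Treg-bmal1KO and Treg-bmal1WT mice, collected at ZT12 and ZT0 (hours of the light cycle) after housing under a reversed light schedule. All mice carried the Foxp3.Cre-YFP allele on C57BL/6, a Cre recombinase driven by the Treg gene Foxp3, so deletion of the clock gene Bmal1 (Arntl) is targeted to cells that express Foxp3. Age, sex and animals per group are not given in the sources used here. Cells of both genotypes, both times and both tissues were marked with hashtag antibodies and pooled into 1 gene expression library with 1 hashtag library. Genotype, time and tissue allow 8 combinations, more than the 6 hashtags to which cells were assigned. Of the 22960 gene expression barcodes, 22952 were also in the hashtag library. Cells were assigned to 6 hashtags, the labels tie no number to a tissue, genotype or time, and hashtags are therefore described one by one. This pooled library is 1 sample: no p-value is given, no hashtag is a replicate of a condition, and every interval covers counting error only, not the spread between cells or animals.

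Regulatory T cells (Tregs) restrain other immune cells, and Foxp3 is their defining transcription factor. Many Tregs of adipose tissue carry ST2, depend on Pparg and Gata3, and make the repair factor amphiregulin (Areg). Another Treg programme, described in type 1 inflammation, runs with the transcription factor T-bet (Tbx21) and the chemokine receptor Cxcr3. Il10 encodes an anti-inflammatory cytokine, Gzmb a protease of cytotoxic granules, and Cyp11a1 the mitochondrial enzyme that cuts the side chain of cholesterol at the start of steroid hormone synthesis. Ccl4, a chemokine that attracts immune cells, was the other marker given for these cells.

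The promoters of Gzmb and Cyp11a1 are shown because members with each of those transcripts are compared further on. Each stretch covers 250 bases before to 50 bases after a transcription start in RefSeq on GRCm38.p6, printed 5′ to 3′ on the strand of the gene, and Cyp11a1 has 2 annotated starts. Capitals mark the motif matches found in each window.

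Gzmb, chr14:56262285-56262584, minus strand: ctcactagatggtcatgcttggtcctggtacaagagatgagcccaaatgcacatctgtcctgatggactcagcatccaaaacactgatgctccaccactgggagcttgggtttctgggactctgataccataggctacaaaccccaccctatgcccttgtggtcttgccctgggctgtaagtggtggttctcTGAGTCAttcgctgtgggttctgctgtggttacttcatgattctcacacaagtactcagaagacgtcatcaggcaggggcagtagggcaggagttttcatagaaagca

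Cyp11a1, first start, chr9:57997774-57998073, plus strand: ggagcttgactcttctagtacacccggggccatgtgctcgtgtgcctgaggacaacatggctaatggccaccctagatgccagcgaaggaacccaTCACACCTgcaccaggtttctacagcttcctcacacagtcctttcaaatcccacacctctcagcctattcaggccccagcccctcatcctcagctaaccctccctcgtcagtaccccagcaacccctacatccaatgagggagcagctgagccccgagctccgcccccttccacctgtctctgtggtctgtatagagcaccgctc

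Cyp11a1, second start, chr9:58014702-58015001, plus strand: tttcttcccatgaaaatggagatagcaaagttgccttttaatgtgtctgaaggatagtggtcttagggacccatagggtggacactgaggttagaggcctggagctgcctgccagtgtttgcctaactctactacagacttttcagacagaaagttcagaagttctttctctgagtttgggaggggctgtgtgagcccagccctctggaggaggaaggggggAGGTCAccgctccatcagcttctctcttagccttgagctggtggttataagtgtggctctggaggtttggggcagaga

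The capitals in Gzmb are an AP-1 site (TGANTCA) that begins 58 bases before the start, and 7.81% of 32851 promoters hold that motif on either strand. The capitals at the first Cyp11a1 start are the T-box element AGGTGTGA read on the other strand, 155 bases before the start (1.28% of promoters). The capitals at the second start are a ROR element (AGGTCA) 28 bases before it, a motif held by 16.3% of promoters. The same search used the E-box CACGTG (7.15% of promoters), the CRE TGACGTCA (1.79%), the NFAT motif GGAAAA (23.4%) and the GATA motif AGATAA (11.2%), and found none of these letters in the 3 windows. The Cxcr3 window held none of the 7 motifs, and Il10 and Ccl4 are named only. A match is a description of letters, not a bound site.

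Cxcr3 was the most widely shared of the signature transcripts, and each of the others marked only some members. Cxcr3 was detected in 181 of 205 members (88.3%), Il10 in 95 (46.3%), Cyp11a1 in 91 (44.4%) and Gzmb in 68 (33.2%). The commonest pairs were Cyp11a1 with Cxcr3 alone (59 cells), Il10 with Cxcr3 alone (51) and Gzmb with Cxcr3 alone (46). Il10 with Cyp11a1 alone made 14 members, Il10 with Gzmb alone 8, and Gzmb with Cyp11a1 alone 2. In all, 180 members had 2 signature genes, 25 had 3 and none had all 4. No member had UMIs of Il10, Gzmb and Cyp11a1 together, and at this depth a missing UMI does not show that a cell lacks the transcript. Cells with a UMI also arise from free RNA: among 2276 naive-type T cells (at least 3 UMIs summed over markers of naive cells such as Ccr7 and Lef1, no Treg gene), Il10 was seen in 2.90%, Gzmb in 0.967%, Cyp11a1 in 0.483% and Cxcr3 in 7.43%. Median depth was 3146 UMIs in members and 3917.5 in those naive-type cells. Thinned to 1500 UMIs each, which left out 8 members, 26.4% of members kept an Il10 UMI, 19.3% a Gzmb UMI, 27.9% a Cyp11a1 UMI and 54.8% a Cxcr3 UMI.

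The Treg genes of the rule were mostly met by Ikzf2, which encodes the Treg factor Helios. Ikzf2 was detected in 178 members, Ctla4 in 106, Il2ra in 62 and Foxp3 in 32. The Foxp3 share, 15.6%, was close to the 18.4% of ST2 Tregs (1979 T cells of hashtags 1 to 4 with an Il1rl1 UMI and at least 1 Treg gene). Levels are given in CPM, a gene's UMIs divided by all UMIs of the class and scaled to 1000000. Foxp3 stood at 49.2 CPM in members and 50.2 CPM in ST2 Tregs. Il2ra, the high-affinity IL-2 receptor chain, stood at 99.6 CPM in members and 313 CPM in ST2 Tregs. A further 25 members had neither Foxp3 nor Ikzf2 and met the rule through Il2ra or Ctla4 only. These values belong to the rule and carry no test.

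At the edges of the rule, 32 members had exactly 1 Areg UMI, and 9 cells missed the rule only because they had 2. Another 114 T cells met every other condition but had an Il1rl1 UMI. These cells were deeper, with a median of 5030.5 UMIs, and a deeper cell is more likely to show an Il1rl1 molecule. A single signature gene in place of 2 was found in 1061 cells, of which 911 had Cxcr3, and 1104 cells with a Treg gene and no Il1rl1 had none.

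Members were 108, 17, 62 and 18 cells in hashtags 1 to 4. As shares of T cells these were 4.18% (95% exact binomial interval 3.44 to 5.02), 1.19% (0.694 to 1.90), 3.76% (2.90 to 4.80) and 1.52% (0.905 to 2.40). Hashtags 1 and 3 were high, hashtags 2 and 4 low, and the intervals of the 2 levels did not overlap. ST2 Tregs ran the other way across the same hashtags, at 24.1%, 37.6%, 20.9% and 40% of T cells. As a share of T cells with a Treg gene, members made 6.29%, 1.70%, 6.11% and 2.24% in hashtags 1 to 4, so the order was the same within that denominator. Median depth of members was 3097.5, 2653, 3245.5 and 3802 UMIs. Because a T cell with an Il1rl1 UMI cannot be a member, the 2 shares are not independent. Hashtags 5 and 6 held 30 and 25 cells that met the rule on all but the hashtag, or 0.837% (0.565 to 1.19) and 0.748% (0.485 to 1.10) of T cells.

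**Figure D1:**
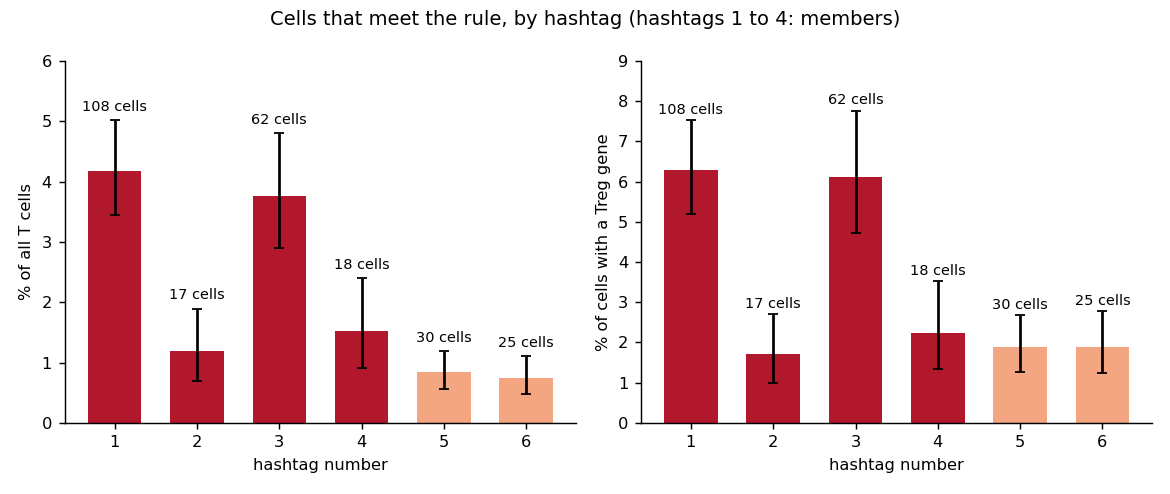
Cells that met the rule in each of hashtags 1 to 6, as percent of all T cells (left) and as percent of T cells with a Treg gene (right), with 95% exact binomial intervals and cell numbers; pale bars are hashtags 5 and 6, whose cells are not members. Hashtags 1 and 3 stand highest in both panels, at 4.18% and 3.76% of T cells and 6.29% and 6.11% of cells with a Treg gene.

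Members together held 873906 UMIs: 441521, 63451, 282909 and 86025 in hashtags 1 to 4. The classes they are set against were deeper in sum, with 8659816 UMIs in ST2 Tregs, 5750064 in 2032 conventional T cells and 1210546 in 391 Ifng-expressing Th1 cells. Barcodes with markers of another cell type (at least 10 UMIs of 1 of 8 lists) made 12 of 205 members (5.85%): 3 with B cell, 3 with endothelial, 5 with NK or innate and 1 with γδ T cell markers. The share was 2.58% in ST2 Tregs, 2.71% in conventional T cells and 3.32% in Th1 cells. Summed B cell markers ran from 252 to 9604 CPM over the hashtags of members with 5 of 6 genes detected, and nearly all of the Ighm in members came from 2 barcodes, with 3010 and 2648 UMIs. NK or innate markers ran from 31.8 to 567 CPM with 6 of 8 detected (Klra7 and Klra8 at 0), endothelial markers from 116 to 2790 CPM with 6 of 6, γδ markers from 0 to 78.8 CPM with 2 of 2, and macrophage markers from 31.5 to 58.1 CPM with 8 of 8. Cd8a and all 5 neutrophil markers were at 0. For this reason a gene's direction is called held only where it stayed called without those barcodes, with each cell weighted equally and with the prior count scaled to depth, 3 checks chosen after seeing the data.

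Set against ST2 Tregs, members showed higher levels of type 1 and cytotoxic genes such as Ccl5, Nkg7 and Tbx21. Immediate early genes such as Fosb and Fos were lower. Because Cxcr3 and Gzmb are signature genes, genes that go with them were favoured in members by the choice. Members had no Il1rl1 UMI and at most 1 Areg UMI, while ST2 Tregs had no limit on Areg. Genes that go with Il1rl1 or Areg were thus favoured in ST2 Tregs. Genes are called higher or lower where the median log2 ratio over hashtags 1 to 4 is at least 1 or at most −1 with the same sign in all 4. By that rule 248 of 8292 genes at 10 CPM or more were higher (2.99%) and 148 were lower (1.78%), with a median of 0.10 over all genes. Centred on that median, the counts were 188 and 186, and with the prior count scaled to each class's depth 95 and 327. Without hashtag 1 or hashtag 3 the higher count was 525 or 550. The call held for 71 of the higher genes and 84 of the lower.

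Among type 1 genes, 7 of 19 tested were higher and none lower, with a list median of 0.29 beside 0.10 over all genes. Ccl5, a chemokine of effector and memory T cells, stood at 3975, 5705, 2895 and 1151 CPM in members of hashtags 1 to 4, against 711, 554, 875 and 529 CPM in ST2 Tregs. Each member value lay above every ST2 value, with a median log2 ratio of 2.10 (range over hashtags 1.13 to 3.37). Ccl5 was detected in 78.0% of members and 49.1% of ST2 Tregs, but also in 39.6% of naive-type cells, so the share carries a background. Nkg7, a granule protein needed for cytotoxic degranulation, stood at 1035, 1119, 686 and 569.6 CPM in members, against 239, 169, 251 and 143 CPM in ST2 Tregs (2.06, 1.45 to 2.74). The groups did not overlap, and Nkg7 was detected in 75.1% of members, 25.8% of ST2 Tregs and 11.2% of naive-type cells. Tbx21, the T-bet gene, stood at 104, 47.3, 70.7 and 46.5 CPM in members, against 24.0, 18.2, 21.6 and 14.7 CPM in ST2 Tregs (1.77, 1.58 to 2.12). All 4 member values again exceeded all 4 ST2 values.

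The IL-2 receptor beta chain, which also serves IL-15, was among the best measured of the higher genes. Il2rb stood at 480.2, 552, 456 and 407 CPM in members of hashtags 1 to 4, against 189, 154, 223 and 162 CPM in ST2 Tregs, without overlap (1.35, 1.04 to 1.86). The collagen-binding integrin Itga1, a marker of tissue-lodged T cells, pooled to 79.0 CPM in members and 26.1 CPM in ST2 Tregs, a median log2 ratio of 1.73. The cytotoxic protease Ctsw (85.8 and 18.0 CPM), the signalling adaptor Sh2d1a (SAP; 135 and 46.0 CPM) and the sulfotransferase Chst2 (58.4 and 10.7 CPM) were likewise higher, by 1.89, 1.38 and 2.07. Cpox, an enzyme of haem synthesis, stood at 109, 63, 84.8 and 58.1 CPM in members and 35.1, 25.1, 31.7 and 22.1 CPM in ST2 Tregs (1.5, 1.43 to 1.64). Ifng, the type 1 cytokine, varied more between hashtags, at 242, 94.6, 77.8 and 23.2 CPM in members and 46.9, 22.6, 38.7 and 19.4 CPM in ST2 Tregs (1.60, 0.56 to 2.37).

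**Figure D2:**
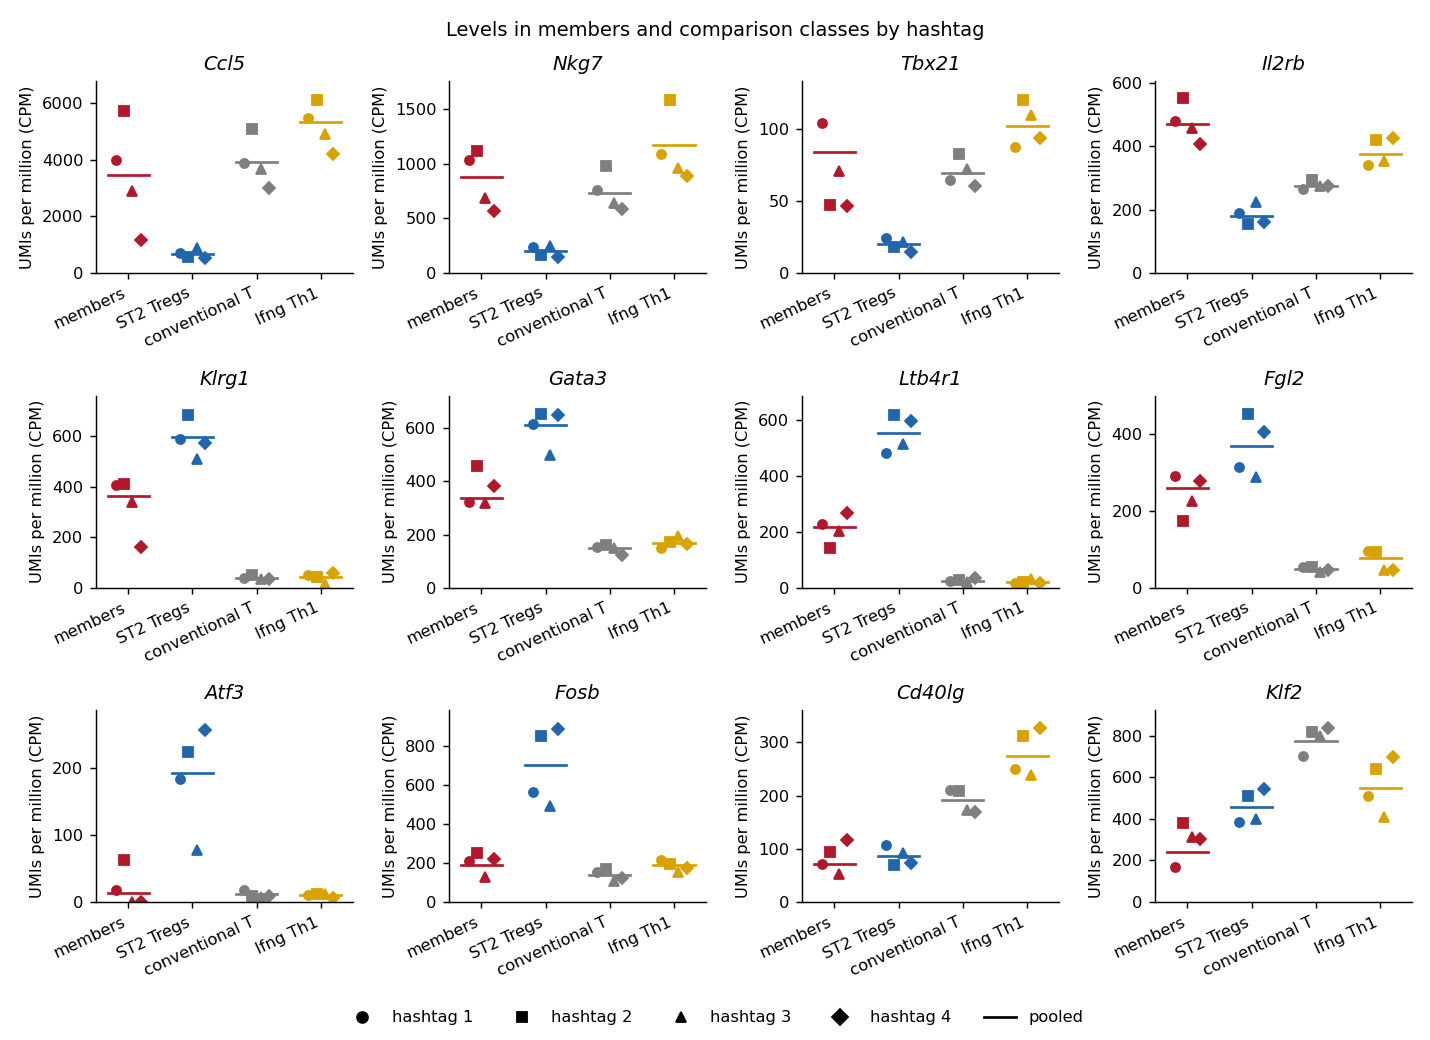
Level in CPM (linear axes from 0) of 12 genes outside the rule in members, ST2 Tregs, conventional T cells and Ifng Th1 cells, one point per hashtag 1 to 4, with a line at the pooled value. Ccl5, Nkg7 and Tbx21 stand higher in members than in ST2 Tregs, Klrg1 and Ltb4r1 in members lie between ST2 Tregs and the other T cells, and Fosb and Atf3 are lower in members than in ST2 Tregs in every hashtag.

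The cytotoxic list had 6 of 16 genes higher and 1 lower (median 0.46), and several of the extreme values rested on few cells. Prf1 (perforin) and Eomes, a T-box factor of cytotoxic cells, had ratios of 2.51 and 2.55, which did not hold. The 10 highest ratios included the NK receptors Ncr1 (4.23), Klre1 (4.08) and Klra1 (3.87), none of which held. At least 2 NK genes were detected in 6 members (2.93%), and their part in these ratios was not tested beyond leaving out the barcodes counted above. Il21 (3.63), Art2a (2.71) and Klk1b9 (2.55) were also among the 10 and did not hold, while the kallikrein Klk1b27 (2.84) did. The inhibitory receptor Lag3 pooled to 37.8 CPM in members and 8.89 CPM in ST2 Tregs, at 1.86, and this call was not held either.

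Ccl4 and Ccl3, neighbouring chemokine genes, had high ratios that came from a handful of cells. Ccl4 stood at 963, 3105, 265 and 244 CPM in members of hashtags 1 to 4, against 37.3, 40.4, 86.9 and 8.41 CPM in ST2 Tregs, a median log2 ratio of 4.77 (1.61 to 6.26). Yet only 32 of 205 members (15.6%, interval 10.9 to 21.3) had a Ccl4 UMI, beside 2.72% of naive-type cells. The 718 Ccl4 UMIs were concentrated: 4 cells held 88.6% of them, 1 cell held 39.3%, and 8 cells had 5 or more. Ccl3 pooled to 145 CPM in members, from 11 cells, and 12.8 CPM in ST2 Tregs (3.43).

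Transcripts of early activation were lower in members than in ST2 Tregs. Only members were held to at most 1 Areg UMI, so any of these genes that go with Areg were favoured in ST2 Tregs. In the list of AP-1 and stress genes 6 of 18 were lower and none higher (median −0.74), and in the list of T cell receptor response genes 6 of 20 were lower and none higher (median −0.69). Fosb, an AP-1 subunit, stood at 211, 252, 127 and 221 CPM in members of hashtags 1 to 4, against 565, 847, 489.7 and 887 CPM in ST2 Tregs, without overlap (−1.82, −1.97 to −1.42). Fos pooled to 547 CPM in members and 1735 CPM in ST2 Tregs (−1.5), and Junb to 1818 and 4383 CPM (−1.23). Zfp36, which destabilises cytokine mRNAs, pooled to 294 CPM in members and 1024 CPM in ST2 Tregs (−1.67), and the NF-κB inhibitor gene Nfkbia to 693 and 1821 CPM (−1.27). Egr1 (−1.58) and the residency marker Cd69 (−1.19) were lower as well. Atf3, a stress-induced factor, stood at 18.1, 63, 0 and 0 CPM in members and 184, 224, 78.0 and 257 CPM in ST2 Tregs, and no UMI was seen in members of hashtags 3 and 4. Genes of both lists also respond to tissue dissociation, whose part in this difference was not tested.

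The chemokine Cxcl2 and the cytokine genes Il5, Il13 and Csf2 were lower as well, while the list of helper products as a whole was split, with 3 of 12 genes higher and 3 lower (median −0.40). Cxcl2 stood at 79.3, 520.1, 145 and 151 CPM in members of hashtags 1 to 4, against 1166, 2090.0, 539 and 1248 CPM in ST2 Tregs (−2.49). No UMI of Il5 or Il13, the type 2 cytokines, or of the chemokine receptor gene Ccr4 was seen in members, which allows up to 4.22 CPM by the exact Poisson interval. In ST2 Tregs these stood at 24.2, 22.1 and 33.0 CPM. With 3 signature genes required, which left 25 of these same members, the median log2 ratios were 0.00067 for Il5 and 0.76 for Il13. Neither gene had a UMI in those 25 cells, so these ratios were set by the prior count and show no higher level. Csf2, the GM-CSF gene, had 1 UMI in members (1.14 CPM) and 32.9 CPM in ST2 Tregs. The chemokine receptor gene Ccr1 (5.72 and 59.0 CPM), the protease inhibitor Ctla2a (235 and 841 CPM) and the proprotein convertase gene Furin (79.0 and 459 CPM) were held as lower. Pxdc1 (−3.00), Hba-a1 (−2.89), Mmp25 (−2.62) and C1qa (−2.62) were the others among the 10 lowest; Hba-a1 marks red cells and C1qa macrophages.

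Several genes of the fat Treg programme, among them Gata3, Klrg1, Pparg and Plin2, stood in members at levels between those of ST2 Tregs and of conventional T cells. Of 21 genes of the ST2 and fat Treg list, 3 were lower than in ST2 Tregs and none higher, with a list median of −0.56. Gata3 pooled to 336 (299 to 377) CPM in members and 614 (598 to 631) CPM in ST2 Tregs (−0.69), short of the fold required for a call. Klrg1, an inhibitory receptor of terminally differentiated cells, pooled to 362 and 598 CPM (−0.65), and the nuclear receptor gene Pparg to 27.5 and 60.6 CPM (−0.75). The lipid droplet gene Plin2 (−0.56), the suppressive mediator Fgl2 (−0.43) and the tissue-homing receptor Cxcr6 (−0.06) were not called. Costimulatory receptors of Tregs stood at close values, with Tnfrsf4 (OX40) at 351 CPM in members and 350.4 CPM in ST2 Tregs, and Tnfrsf18 (GITR) at 413 and 453 CPM. The leukotriene B4 receptor gene Ltb4r1 was called lower (216 and 552 CPM, −1.23), as was Il7r (253 and 538 CPM, −1.04), but neither call held. Maf, a factor that drives Il10, was at 842 CPM in members and 440.3 CPM in ST2 Tregs (0.90) and the folate receptor gene Izumo1r differed by 0.96, both just short of a call.

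Cells just outside the rule, a comparison added after seeing the data, placed these differences. The low immediate early level was shared by other Treg-gene cells without Il1rl1: Fosb stood at 188 CPM in members, 186 CPM in cells with 1 signature gene and 221 CPM in those with none. In cells with at least 2 signature genes and an Il1rl1 UMI it stood at 426 CPM. Ctla2a gave the same order, at 235, 185, 245 and 673 CPM. Both transcripts differed more between cells with and without Il1rl1 than with the number of signature genes.

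Among Treg-gene cells without Il1rl1, Klrg1, Ltb4r1, Neb and Cpox were higher with at least 2 signature genes than with 1 or none. Klrg1 stood at 362 (323 to 404) CPM in members, 96.6 (86.7 to 107) CPM with 1 signature gene and 132 (119.8 to 146) CPM with none. It reached 559 (504 to 618) CPM in the cells with at least 2 signature genes and Il1rl1. Ltb4r1 stood at 216, 82.0, 110.0 and 486 CPM in the same 4 sets. Neb, which encodes the muscle protein nebulin, stood at 65.2, 11.8, 15.5 and 60.8 CPM, and Cpox at 92.7, 44.6, 34.2 and 78.6 CPM. In all ST2 Tregs Klrg1 stood at 598 CPM, Ltb4r1 at 552 CPM, Neb at 59.6 CPM and Cpox at 28.8 CPM. Set against these values, to which they contribute, the cells with at least 2 signature genes and Il1rl1 were higher in Cpox, with Neb at a close value and Klrg1 and Ltb4r1 slightly lower.

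The type 1 genes Ccl5 and Tbx21 were graded with the signature count among cells without Il1rl1, and both were lowest in the cells with Il1rl1. Cxcr3 and Gzmb count towards that signature, so genes that go with them were favoured where more signature genes were required. Ccl5 stood at 3473 CPM in members, 2734 CPM with 1 signature gene, 2199 CPM with none and 1523 CPM in the Il1rl1-positive set. Tbx21 stood at 83.5, 66.0, 44.2 and 37.1 CPM. Klf2, a factor of quiescent and recirculating T cells, ran the other way among cells without Il1rl1, at 243, 521, 681 and 245 CPM in the same 4 sets. The 4 sets differed in depth, with median UMIs of 3146, 2748, 2417 and 5030.5, and the part of depth was not tested.

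Conventional T cells had none of the 4 Treg genes, no Il1rl1, at most 1 Areg UMI and under 2 signature genes. Set against them, members showed higher levels of several Treg genes that the rule did not use. Because members had to carry a Treg gene, genes that go with the 4 were favoured in members by the choice. Of 8372 genes, 414 were higher (4.95%) and 161 lower (1.92%), with a median of 0.14 over all genes, and centring on that median gave 300 and 230, a scaled prior count 209 and 331. Without hashtag 1 the higher count was 643, and without hashtag 2 the lower count was 262. The call held for 174 higher and 67 lower genes. In the Treg list, 11 of 21 genes were higher and none lower (median 1.26), against 4 higher and 1 lower when set against ST2 Tregs. Suppressive mediators had 6 of 15 higher (median 1.16), and the list of inhibitory receptors and factors of type 1 regulatory (Tr1) cells 7 of 13 (median 1.27), neither with any lower.

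Members carried Tnfrsf4 at 344, 599, 289.8 and 407 CPM in hashtags 1 to 4, against 74.2, 62.9, 58.8 and 64.3 CPM in conventional T cells (2.49, 2.21 to 3.26). Tnfrsf18 pooled to 413 and 163 CPM (1.35), and Tnfrsf9 (4-1BB) to 75.5 and 5.22 CPM (3.34). Ikzf4, encoding the Helios relative Eos, pooled to 26.3 and 5.57 CPM (2.31), and Capg, an actin capping gene high in Tregs, to 474 and 119 CPM (2.09). All of these calls held. The suppressive mediators Fgl2 (2.46), the IL-35 subunit gene Ebi3 (3.65) and the TGF-β activating integrin gene Itgb8 (3.93) were higher and held, as did the inhibitory receptors Pdcd1 (1.90) and Lag3 (1.97) and the factor Maf (1.33).

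Genes known from fat Tregs were also higher than in conventional T cells, although members were chosen for lacking Il1rl1 and Areg. Of 18 tested, 8 were higher and 1 lower (median 1.10). Klrg1 stood at 408, 409.8, 339 and 163 CPM in members of hashtags 1 to 4, against 39.5, 51.3, 34.8 and 32.7 CPM in conventional T cells (3.15, 2.34 to 3.36). Klrg1 was detected in 58.0% of members and 4.44% of naive-type cells, and in 36.0% of members after thinning. Gata3 (336 and 147 CPM, 1.33), Pparg (27.5 and 7.48 CPM, 2.09), Plin2 (143 and 28.3 CPM, 2.23) and the galectin gene Lgals3 (457 and 129.6 CPM, 1.82) were held as higher. Ltb4r1, which guides cells towards leukotriene B4, stood at 226, 142, 201 and 267 CPM in members and 23.3, 28.1, 19.2 and 32.7 CPM in conventional T cells (3.16). The metallothioneins Mt1 (3.33) and Mt2 (3.23), Neb (4.35), the gut-homing receptor gene Ccr9 (3.43) and Cxcr6 (1.72) were higher and held.

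The type 1 genes that were higher in members than in ST2 Tregs were not called against conventional T cells of the same hashtags. Ccl5 pooled to 3473 CPM in members and 3902 CPM in conventional T cells, with a median log2 ratio of −0.16. Nkg7 (882 and 737 CPM), Tbx21 (83.5 and 69.0 CPM) and Ifng (157 and 122 CPM) differed by 0.15, −0.11 and −0.48, none called. In the type 1 list 2 of 19 genes were higher (median −0.11) and in the cytotoxic list none of 15 was called (median 0.13), beside a median of 0.14 over all genes. A ratio below the fold required does not show that the levels were equal.

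Genes of resting and recirculating lymphocytes were lower in members, with 11 of 15 lower and none higher (median −1.4). Klf2 stood at 168, 378, 311 and 302 CPM in members of hashtags 1 to 4, against 699.9, 816, 799 and 836 CPM in conventional T cells (−1.4, −2.05 to −1.08), without overlap. Its target S1pr1, the receptor for exit from tissue, pooled to 85.8 and 243 CPM (−1.43), and the lymph node homing receptor gene Ccr7 to 24.0 and 109 CPM (−2.05). Tcf7 (−1.33), Satb1 (−1.71) and Dapl1 (−2.80) were lower and held. Of the helper products 3 of 10 were lower and 1 was higher (median −0.44): Il2 pooled to 16 and 33.7 CPM (−1.54), Tnf to 25.2 and 69.2 CPM (−1.32), and the CD40 ligand gene Cd40lg to 72.1 and 192 CPM (−1.27). Proliferation genes had 5 of 17 higher and none lower (median 1.44); Ube2c, of mitotic exit, held (2.84), and Mki67 was called (1.36) but did not hold. The 10 highest also held Mrgpra3 (5.70), Mpped2 (5.30), Frmd5 (4.39), Tnfrsf8 (4.11), Adra2c (4.07), Ncmap (3.92), Ccl4 (4.87) and Ccl3 (3.78). Among them, Mrgpra3, Mpped2 and Tnfrsf8 passed the 10 CPM filter only through members. Of the 10 lowest, all but Dapl1 were endothelial, stromal or macrophage genes, such as Gpihbp1 (−3.19), Dcn (−2.81) and C1qa (−2.80), and these calls did not hold.

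**Figure D3:**
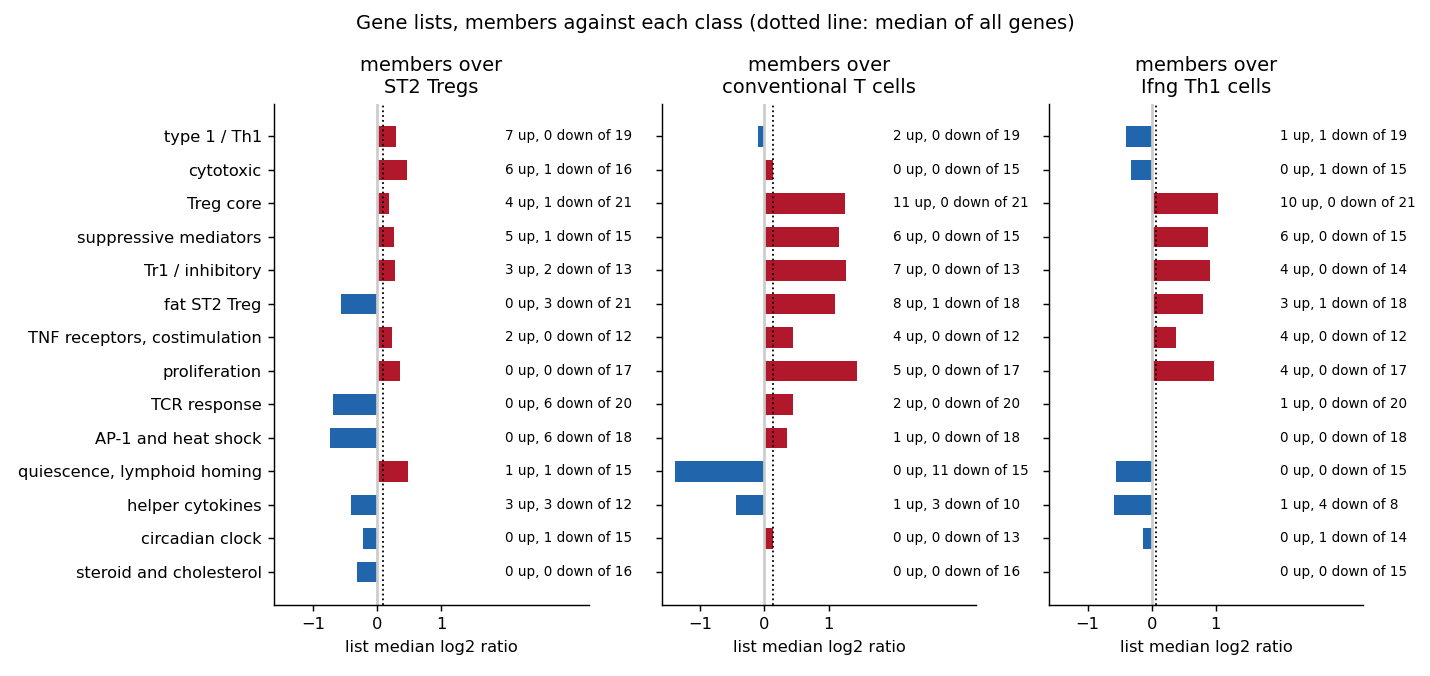
Median log2 ratio of members over ST2 Tregs, conventional T cells and Ifng Th1 cells for 14 gene lists, with the number of genes called higher and lower; the dotted line is the median of all genes tested. The Treg list has a median of 0.18 against ST2 Tregs, 1.26 against conventional T cells and 1.04 against Th1 cells, and the AP-1 list −0.74 against ST2 Tregs.

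Set against Th1 cells (an Ifng UMI, no Treg gene, no Il1rl1), members had more calls among the Treg genes than among the type 1 genes, of which 1 of 19 was higher and 1 lower (median −0.39). Of 8405 genes, 319 were higher (3.8%) and 142 lower (1.69%), centring on the median of 0.07 gave 256 and 196, and a scaled prior count 193 and 254. The lower count was 230 to 329 with any 1 hashtag left out (276, 329, 230 and 261 without hashtags 1 to 4). The call held for 151 and 66. The Treg list had 10 of 21 genes higher and none lower (median 1.04), suppressive mediators 6 of 15 higher and none lower (median 0.88), and fat Treg genes 3 of 18 higher and 1 lower (median 0.79). Klrg1 pooled to 362 CPM in members and 41.3 CPM in Th1 cells (3.14), Ltb4r1 to 216 and 20.7 CPM (3.26), and Tnfrsf4 to 351 and 53.7 CPM (2.56). Gata3 was higher by 1.16, Tnfrsf18 by 1.09, Fgl2 by 1.91, Capg by 2.41 and Ikzf4 by 3.02, all held. Neb had the highest ratio (4.37), followed by Mt2 (4.24), Ccl4 (4.20) and Ccr9 (4.13).

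Ccl5, Nkg7, Tbx21 and Il2rb were not called against Th1 cells. Ccl5 pooled to 3473 CPM in members and 5341 CPM in Th1 cells (−0.61), Nkg7 to 882 and 1169 CPM (−0.49), and Tbx21 to 83.5 and 102 CPM (−0.75). Helper products were lower in members, with 4 of 8 genes lower and 1 higher (median −0.59). Cd40lg stood at 72.5, 94.6, 53.0 and 116 CPM in members of hashtags 1 to 4, against 251, 311, 239 and 326 CPM in Th1 cells, without overlap (−1.69, −2.13 to −1.43). Il2 (16 and 47.9 CPM, −2.30), Tnf (25.2 and 87.6 CPM, −1.47), the chemokine Xcl1 (−1.35), Ly6c2 (−1.5), Ctsw (−1.15) and the transcription factor Bhlhe40 (−1.64) were lower and held. Th1 cells were chosen for Ifng, so genes that go with Ifng were favoured in them by the choice. They also had no Treg gene, so genes that go with the Treg genes were favoured in members. Of the 391 Th1 cells, 369 are also among the conventional T cells.

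Few genes separated members from all 3 classes at once. Although 54 genes were called higher and 15 lower in every comparison, the calls held in all 3 for 10 and 5. In the single comparisons, 2.99%, 4.95% and 3.8% of genes were called higher and 1.78%, 1.92% and 1.69% lower. Cpox was the best measured of the 10, at 92.7 CPM in members, 28.8 CPM in ST2 Tregs, 25 CPM in conventional T cells and 26.4 CPM in Th1 cells, and it was detected in 56 members. The others higher were Ppp2r3a, Gm17322, Klk1b27, Acp6, Bub1b, Cep152, Mrgpra3, Mpped2 and Mdm1, and the 5 lower were Ccr4, 5330406M23Rik, Setd7, Gid4 and Patl1. Gm17322, Klk1b27, Bub1b, Cep152, Mrgpra3, Mpped2 and Mdm1 stood under 10 CPM in all 3 classes. They passed the filter only through members, which favoured a higher call. They also rested on few UMIs in members, from 36 for Gm17322 down to 9 for Mdm1. The 3 comparisons share the member cells, and 369 of the 391 Th1 cells are also conventional T cells, so these counts are not independent.

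Steroid synthesis beyond Cyp11a1 did not stand out. Of the steroid and cholesterol genes tested, none of 16 was called against ST2 Tregs (median −0.32), none of 16 against conventional T cells (median 0.01) and none of 15 against Th1 cells. Cyp11a1 itself was used by the rule and stood at 190.3, 158, 205 and 232 CPM in members of hashtags 1 to 4.

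Members with Cyp11a1 and members with Gzmb differed in several gene lists, among them fat Treg genes, AP-1 and stress genes and proliferation genes. Of the 205, 86 had Cyp11a1 without Gzmb, 63 had Gzmb without Cyp11a1, 51 had neither and 5 had both. Among 2370 T cells with a Treg gene, no Il1rl1 and at most 1 Areg UMI, 5 had both transcripts, and the product of the 2 shares gives 6.5 cells. Il10 with Gzmb was seen in 17 cells (product 6.5) and Il10 with Cyp11a1 in 27 (product 9.62), while Il10 with Cxcr3 was near its product (73 cells, product 69.6). Median depth in these cells rose from 2417 UMIs with no signature gene to 3379 with 3, and its part in these counts was not tested. In ST2 Tregs, Gzmb with Cyp11a1 was seen in 21 of 1979 cells (product 12.8). Cyp11a1 without Gzmb made 39.8%, 41.2%, 43.5% and 50% of members in hashtags 1 to 4, and Gzmb without Cyp11a1 made 38.9%, 23.5%, 21.0% and 22.2%. Both sets had like depth, with medians of 3095.5 and 3034 UMIs.

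In the list of fat Treg genes, 6 of 12 with at least 30 UMIs were higher in the Cyp11a1 set and 1 was lower, by counting intervals away from 0 (list median 0.49), beside 8.35% higher and 5.25% lower among all 2898 genes measured. In the cells outside the rule described below, 6 of the 12 were higher and 1 lower (median 0.70). Klrg1 stood at 602 CPM in Cyp11a1 members and 254 CPM in Gzmb members, a log2 ratio of 1.24 (counting interval 0.85 to 1.65). Gata3 stood at 485 and 198 CPM (1.28, 0.85 to 1.76), and Plin2 at 230.3 and 86.9 CPM (1.39, 0.74 to 2.12). Ltb4r1, which the list does not hold, stood at 359 and 129 CPM (1.47, 0.94 to 2.06), positive in each hashtag, at 1.4, 1.03, 1.68 and 1.94. The same 4 genes were higher in Cyp11a1 cells among cells the rule left out because they had 1 signature gene only, 60 with Cyp11a1 and 34 with Gzmb. There Klrg1 stood at 417 CPM in Cyp11a1 cells and 183 CPM in Gzmb cells (1.17, 0.48 to 1.95), Gata3 at 519.8 and 141 CPM (1.85), Plin2 at 206 and 74.8 CPM (1.4) and Ltb4r1 at 369 and 108 CPM (1.73). Cxcl2 (2.40 in members, 1.86 outside), Fgl2 (0.71 and 2.02), the annexin Anxa1 (1.54 and 1.25) and the IL-10 receptor gene Il10ra (1.36 and 2.81) behaved alike. The fat Treg list was not uniform: Rora was lower in Cyp11a1 members (−1.30, −2.35 to −0.37), with an outside interval that spanned 0 (−1.69 to 0.77). Cd81 was higher in Cyp11a1 members (1.89, 0.76 to 3.40), with a ratio of −0.71 outside (−2.09 to 0.61).

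Of 16 AP-1 and stress genes measured, 10 were higher and none lower in Cyp11a1 than in Gzmb members (median 0.54), and outside the rule 7 were higher and none lower (median 0.68). Fos stood at 887 CPM in Cyp11a1 members and 275 CPM in Gzmb members (1.69, 1.33 to 2.07), with a ratio of 1.09 outside (0.56 to 1.67). Jun (1.61 in members, 2.37 outside), Fosb (1.23 and 1.24) and the phosphatase gene Dusp1 (1.03 and 0.48) had intervals above 0 in both sets of cells. These genes respond to tissue dissociation, whose part in the split was not tested.

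Ccl5 and most proliferation genes were lower in the Cyp11a1 set than in the Gzmb set: of 13 proliferation genes measured, 9 were lower and none higher in Cyp11a1 members (median −1.14), and outside 7 were lower and none higher (median −3.27). The type 1 list was split, with 4 of 14 genes higher and 4 lower in Cyp11a1 members (median −0.29). Ccl5 stood at 2121 CPM in Cyp11a1 members and 5601 CPM in Gzmb members (−1.4, −1.53 to −1.27), negative in each hashtag, at −1.32, −2.48, −0.72 and −2.07. In the cells with 1 signature gene Ccl5 stood at 1795 and 4787 CPM (−1.41). Nkg7 differed by −0.42 in members and −1.15 outside, and the membrane gene Ms4a4b stood at 418 and 994 CPM in members (−1.25). Mki67, the usual marker of cycling cells, was detected in 4 of 86 Cyp11a1 members and 12 of 63 Gzmb members, and outside in 0 of 60 and 8 of 34 cells. The proliferation genes Top2a (58.3 and 212 CPM), Birc5 (21.5 and 142 CPM) and Hmgb2 (482 and 1532 CPM) were lower in Cyp11a1 members and in the Cyp11a1 cells outside. Within members this rested on hashtags 1 to 3, since hashtag 4, with few cells, had the opposite sign for Top2a, Birc5, Hmgb2 and Mki67. The granzyme Gzmk differed by −3.83 in members, and outside it had 3 and 1 UMIs. Hopx differed by −1.44 in members, where 1 cell held 39.5% of its UMIs, and by −0.60 outside (−1.38 to 0.17). Cxcr6 differed by 1.05 in members (0.71 to 1.4) and 0.47 outside (−0.04 to 1.01). Whether these ratios differ between members and the cells outside was not tested. Ccl4 changed sign between the 2 sets of cells, at −0.96 in members and 4.75 outside.

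Over 2898 genes with at least 30 UMIs in the 2 sets of members, the interval lay above 0 for 242 (8.35%) and below 0 for 152 (5.25%). Without the barcodes of other cell types the counts were 172 and 136. Of the 242, 178 had the same sign in the cells with 1 signature gene, 62 with an interval above 0 and 15 with one below. Of the 152, 123 had the same sign, 52 with an interval below 0 and 3 with one above. Over all 2898 genes the interval outside lay above 0 in 138 (4.76%) and below 0 in 215 (7.42%). These intervals do not cover the spread between cells, so their counts overstate the number of genes that differ.

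**Figure D4:**
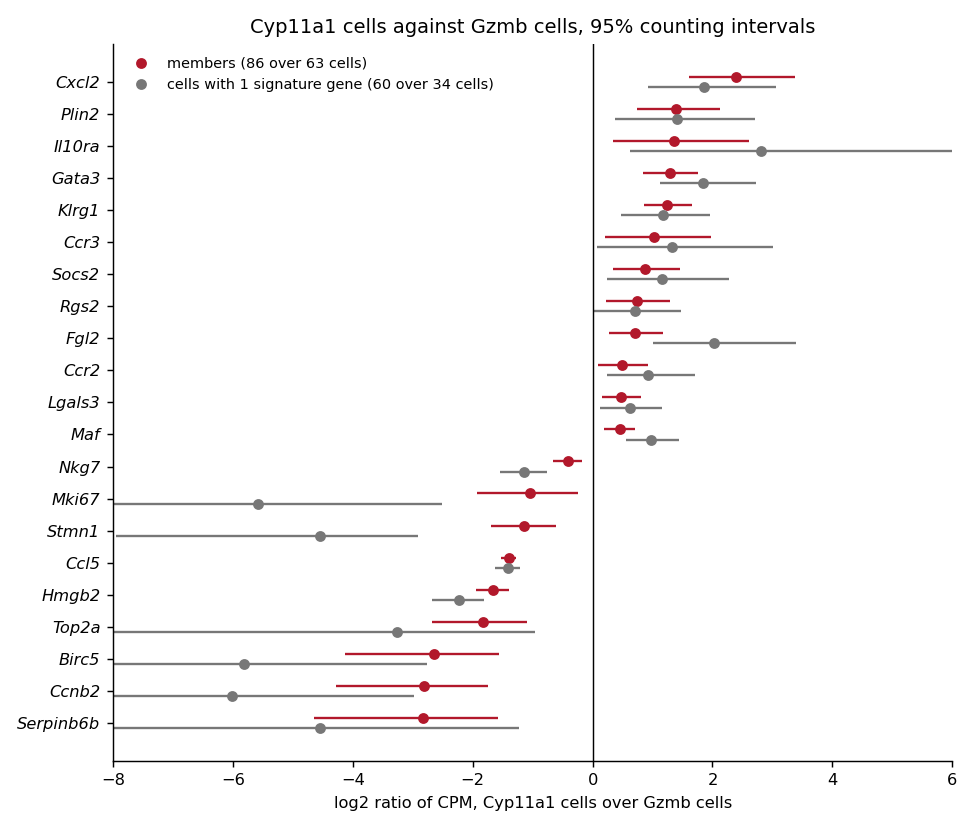
Log2 ratio of cells with Cyp11a1 over cells with Gzmb for 21 genes, in members (86 over 63 cells) and in cells with 1 signature gene (60 over 34 cells), with 95% counting intervals; lines that reach the edge run on beyond it. Cxcl2, Gata3, Plin2 and Klrg1 lie right of 0 in both sets and Ccl5, Top2a and Birc5 left of 0 in both.

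The Treg genes outside the rule also differed between the 180 members with Foxp3 or Ikzf2 and the 25 with only Il2ra or Ctla4. Tnfrsf18 stood at 450.0 and 192 CPM (log2 ratio 1.20, interval 0.63 to 1.89), Tnfrsf4 at 382 and 168 CPM (1.15) and Klrg1 at 403 and 112 CPM (1.80). Fgl2 had the widest gap of these, at 295 and 56.0 CPM (2.30), and Maf stood at 913 and 416 CPM (1.12). Gzmk ran the other way, at 33.4 and 128 CPM (−1.95), while Ccl5 differed by −0.22. The 25 cells thus stood lower in Tnfrsf18, Tnfrsf4, Klrg1, Fgl2 and Maf, which the rule did not use. Members with Foxp3 or Ikzf2 made up 88.9%, 88.2%, 85.5% and 88.9% of members in hashtags 1 to 4.

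Arntl, the gene targeted in Treg-bmal1KO mice, was too sparse in members to check any label. It had 10 UMIs, or 9.06, 15.8, 17.7 and 0 CPM in hashtags 1 to 4, and pooled to 11.4 CPM (5.49 to 21.0) in members and 22.7 CPM in ST2 Tregs. No source used here states whether the counted 3′ end lies within the deleted part. Of the 15 clock genes tested against ST2 Tregs 1 was called, Hlf, a clock output factor, at 5.72 CPM in members and 31.3 CPM in ST2 Tregs (−2.06, held). Rora, a nuclear receptor that activates Arntl, pooled to 81.2 (63.5 to 102) CPM in members and 255 (245 to 266) CPM in ST2 Tregs. Its hashtag values were 31.7, 142, 134 and 116 CPM in members and 253, 266, 225 and 269 CPM in ST2 Tregs, lower in every hashtag, and the median of −0.99 was just short of a call. Nfil3, which opposes Dbp, stood at 38.9 (26.9 to 54.4) CPM in members and 37.6 (33.7 to 42.0) CPM in ST2 Tregs, with 9.91 (7.51 to 12.8) CPM in conventional T cells and 10.7 (5.72 to 18.4) CPM in Th1 cells. Cry1 (22.9 and 35.0 CPM), Per1 (21.7 and 32.8 CPM), Clock (14.9 and 23.8 CPM), Nr1d2 (19.5 and 14.4 CPM), Dbp (19.5 and 21.7 CPM) and Tef (14.9 and 12 CPM) were not called. The kinase genes Csnk1d (57.2 and 60.4 CPM) and Csnk1e (22.9 and 26.0 CPM) were not called either.

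**Figure D5:**
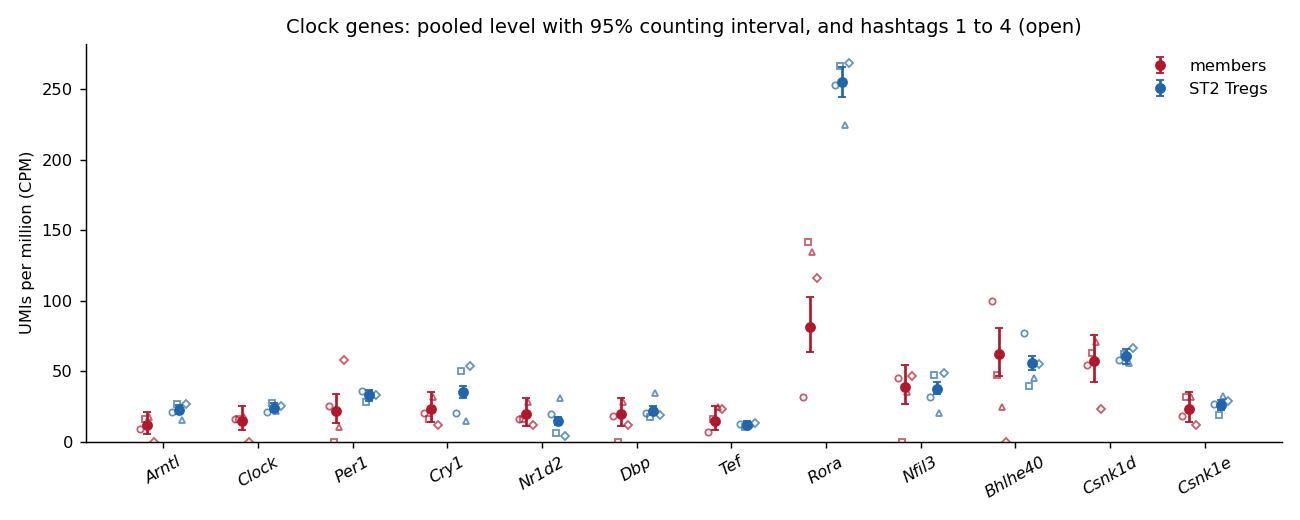
Level in CPM (linear axis from 0) of 12 clock genes in members and ST2 Tregs, with 95% counting intervals of the pooled value and one open point per hashtag 1 to 4. Rora is lower in members in every hashtag, and most other intervals overlap.

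Immunoglobulin genes and Fabp4 led the genes that differed between the hashtags of members, and the tenth was Bhlhe40, a repressor of clock genes that also acts in T cell cytokine responses (54 UMIs). Bhlhe40 stood at 99.7, 47.3, 24.7 and 0 CPM in members of hashtags 1 to 4, highest in hashtag 1 and at 0 in hashtag 4. Of 2465 genes with at least 50 UMIs in members, 215 had a highest and a lowest hashtag whose intervals did not overlap. The 10 with the widest ratio were the immunoglobulin genes Igkc, Ighm, Jchain and Iglc2, the fat and endothelial gene Fabp4, Tmem176b, Zcchc9, Olfr1369-ps1, Copa and Bhlhe40. The 70 UMIs of Olfr1369-ps1 all came from hashtag 1, Tmem176b stood at 45.3, 0, 56.6 and 244 CPM, and Zcchc9 at 54.4, 63, 117 and 0 CPM. With 17 and 18 cells in hashtags 2 and 4, a few cells set each of these values.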

How the data were processed

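Deposited counts were used: whole UMIs per gene and barcode, and hashtag counts per barcode in a second library. Libraries were 10x single cell 3′ v3.1, per the labels. Cell Ranger 6.0, Seurat 3 and mm10 are listed in the submitters' processing notes, while the deposited file headers name cellranger 4.0.0. Filters left 14382 of 22960 barcodes: 21236 passed on genes and mitochondrial share, 6633 had mixed hashtags and 221 had under 10 hashtag counts. Hashtag mixtures were the only doublets removed, and pairs within a hashtag were estimated at 10.9%. UMIs were summed per class and hashtag, and log2 ratios of CPM (prior count 0.5, genes at 10 CPM or more) were taken within each of hashtags 1 to 4. Shares have exact Clopper-Pearson and levels exact Poisson 95% intervals. With 1 pooled library no test was made. Scripts ran with matplotlib 3.10.9, pandas 2.3.3, scipy 1.17.1 and numpy 2.4.6 under Python 3.11.15 and were tested on simulated data. Of 55487 features, 54349 identifiers matched reference names, and 114 symbols occur more than once.

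The members and the 37 gene lists were chosen with earlier results of these data known. Named genes were, per comparison, the 10 highest and 10 lowest called by median ratio (predicted genes and receptor variable genes left out), up to 4 per list with 1 sign in all hashtags, clock genes at 10 CPM or more (1 is not reported here), and the 10 most variable over hashtags. Genes named for cells just outside the rule, for the Cyp11a1 and Gzmb sets, for other splits of the members and as held in 3 comparisons were chosen after their values were seen, as were Chst2, Furin, Itga1 and Sh2d1a and the genes given as not called.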

Additional observations from a re-analysis of the deposited data

Results flagged for a closer look

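Cells outside the 4 hashtags that define the members also met the rest of the rule: 30 cells in hashtag 5 and 25 in hashtag 6. They made 1.88% and 1.90% of the cells with a Treg gene in those hashtags (1595 and 1318 cells), against 6.29%, 1.70%, 6.11% and 2.24% in hashtags 1 to 4. Their genes are described under the other observations. The hashtag library also held counts of 4 further antibodies to which no cell was assigned: 278 counts of hashtag 7, 10 of hashtag 8, 172 of hashtag 9 and 7 of hashtag 10.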

How the results depend on the processing

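No paired analysis was possible because the cells come from 1 pooled library and the hashtag numbers carry no replicate. Of 2772 gene values under 18 alternatives, 2582 moved no further than the pooled counting interval reaches from the main ratio, and 168 moved further. The other 22 were called genes whose sign reversed. A change of sign was looked for in called genes only. Counts are given as higher and lower against ST2 Tregs, conventional T cells and Th1 cells. Requiring 3 signature genes left 25 members and gave 1929 and 31, 2093 and 68, and 1633 and 61. A prior count of 2 gave 1113 and 41, 1290 and 21, and 15 lower against Th1 cells; a prior scaled to depth gave 95 and 327, 209 and 331, and 193 and 254. A filter at 5 CPM gave 498, 703 and 491 higher, no filter 7668, 6549 and 1081, and 50 CPM 30 and 55, 107 and 49, and 61 and 26. Thinning to 1500 UMIs gave 987 and 83, 1147 and 68, and 767 higher against Th1 cells. Lower counts against conventional T cells were 106 with stricter hashtag calls, 90 without cells over 10000 UMIs and 106 without barcodes of other cell types. With 1 hashtag left out, members ranged from 97 to 188, and the counts from 251 to 550 and 206 to 218, 451 to 643 and 204 to 262, and 369 to 477 and 230 to 329. Low counts in the smaller class raise its ratio under a fixed prior count, by construction. Reversed ratios with 3 signature genes were Il13 (0.76) and Il5 (0.00067) against ST2 Tregs, Esam (0.27) and Rarres2 (0.75) against conventional T cells and Anxa3 (0.54) against Th1 cells. With thinning they were Aebp1 (0.42), Esam (0.48) and Rarres2 (0.25) against conventional T cells, and Anxa3 (0.36), Ccnd1 (0.75) and Ebf1 (0.11) against Th1 cells. Without barcodes of other cell types they were C1qa (0.65) against ST2 Tregs, Aebp1 (0.35), Aqp1 (0.41), Esam (0.95), Gpihbp1 (0.46), Ramp2 (0.77) and Rarres2 (0.013) against conventional T cells, and Anxa3 (0.084), Ccnd1 (0.28), Ebf1 (0.020) and Sult1a1 (0.45) against Th1 cells. Il13 and Il5 had no UMI in members, so their reversed ratios were set by the prior count. The cause of the other reversals was not tested. The prior scaled to depth, the 50 CPM filter, the equal weight of cells and the removal of other-type barcodes were chosen after seeing the data. Depth limits genes under about 10 CPM, where members hold few UMIs.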

Other observations

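The cells of hashtags 5 and 6 that met the rest of the rule (55 cells, median depth 4013 UMIs) had a different make-up from members. Klrg1 stood at 51.2 CPM in the hashtag 5 and 6 cells and 362 CPM in members (log2 ratio −2.77, interval −3.71 to −2.05). Lgals3 stood at 84.0 and 457 CPM (−2.41) and Cxcr6 at 139 and 503 CPM (−1.84). Fgl2 (−2.91), Plin2 (−2.60), Gata3 (−1.30) and Il2rb (−1.44) were lower as well. Izumo1r, the folate receptor FR4, ran the other way at 588 CPM in the hashtag 5 and 6 cells and 173 CPM in members (1.77). So did Nt5e, which encodes CD73 (3.1), Lag3 (1.80), Tcf7 (1.38), Satb1 (2.15) and Ccr7 (1.92). The integrin gene Itgae had 6 UMIs in those cells and none in the 205 members. Gzmb (0.05), Ccl5 (−0.08), Ikzf2 (−0.10) and Cxcr3 (−0.20) had intervals that spanned 0. No source used here ties the hashtags to a tissue, and hashtag and cell state cannot be told apart.

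Members with an Il10 UMI (95 cells) and without one (110 cells) differed in Ccl4, Nrp1 and Egr1, among other genes. Ccl4 stood at 1498 CPM with Il10 and 58.4 CPM without (4.65), a value set by the few Ccl4-rich cells described above. Nrp1 (1.85, 0.78 to 3.24) and Egr1 (1.43, 0.73 to 2.24) were higher with Il10.

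Members with a Foxp3 UMI (32 cells) carried the enkephalin gene Penk at 96.8 CPM, against 2.70 CPM in the 173 without (4.89, 3.02 to 8.35, from 13 and 2 UMIs). Ly6c2 ran the other way, at 14.9 CPM with Foxp3 and 159.5 CPM without (−3.11). Gzmk and the innate adaptor gene Tyrobp had no UMI in the 32 cells and stood at 55.4 and 58.1 CPM in the rest. With 32 cells these values describe the cells seen and no test was made.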
